A study of Mus musculus with 14 samples.

Results

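Fatty acid oxidation was described in white fat from beside the epididymis of male mice, through 36 genes of the carnitine shuttle, the mitochondrial and peroxisomal oxidation cycles, electron transfer, thioesterases and 2 controlling receptors. The members were chosen by name, as rows of the array table that the platform annotation pairs with 1 gene symbol. Of the 36, 35 were measured, out of 19937 genes in all. Cpt1b, the muscle-type carnitine palmitoyltransferase, has no row of its own symbol and was not analysed here. Each gene had its level on 14 Affymetrix arrays, 1 per sample, on a log2 scale where a difference of 1 is a doubling of signal.

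All mice were male on the C57BL6/J background and were 8 weeks old when a diet period of 24 weeks began. EKO mice, whose labels tie the name to apolipoprotein E, ate either the Western diet (4 arrays, EKO Western) or the normal diet (4 arrays, EKO normal). Wild type (WT) mice ate the Western diet (3 arrays, WT Western) or the normal diet (3 arrays, WT normal). The Western diet, called HFD in the labels, is Harlan TD88137 with 42% anhydrous milk fat. The labels give neither the allele nor the tissue in which the gene is lost, and the RNA is that of whole fat pads with every cell type they hold. The questions are what the Western diet did to these genes in EKO and in WT fat, what separated EKO from WT under either diet, and whether both genotypes responded alike.

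Long-chain fatty acids enter mitochondria as carnitine esters, which are made by Cpt1 enzymes, carried inward by Slc25a20 and turned back into acyl-CoA by Cpt2. Each turn of the cycle then uses an acyl-CoA dehydrogenase, a hydratase, a second dehydrogenase and a thiolase, while isomerases and reductases handle double bonds and electron transfer flavoprotein passes electrons to the respiratory chain. Peroxisomes run a parallel cycle on very long and branched chains, and PPARalpha (Ppara) is the receptor best known for inducing both. White fat stores far more fatty acid than it burns.

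Within groups, correlations between arrays over all rows were 0.976 to 0.995, and the number of arrays limits the precision. Apoe lay at 9.46 to 10.26 on the 8 EKO arrays, against 13.13 to 13.65 on the 6 WT arrays, so the genotype labels matched that gene. Adipocyte markers averaged over 10 genes were bright in every group, at 13.24 to 13.37 in EKO Western, 13.30 to 13.37 in EKO normal, 13.03 to 13.12 in WT Western and 13.23 to 13.33 in WT normal. Array background, taken from 1208 olfactory and vomeronasal receptor rows, set 5 arrays at 6.75 to 6.84 apart from 9 at 6.29 to 6.56. The 5 were WT normal replicate 1, WT Western replicate 1, EKO normal replicate 2 and EKO Western replicates 1 and 3. Acot1, a thioesterase of the cytosol, was the 1 member at or below the highest background in every group, with no array above 6.83, so no change is given for it.

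On the Western diet 5 of the 35 members were higher in EKO than in WT fat and none was lower. They were Eci3, an isomerase for unsaturated chains, Acad11, an acyl-CoA dehydrogenase of very long chains, Echs1 and Hadh, which carry out consecutive steps of the mitochondrial cycle, and Crat, which makes short-chain carnitine esters. Among all genes 1.64% were higher and 4.05% lower in this comparison (limma, adjusted p under 0.05). In WT fat Eci3 alone fell on the Western diet and no member rose, against 2.30% of all genes lower and 3.19% higher. In EKO fat no member changed with diet by limma, and 0.0% of all genes were higher and 0.0% lower. At an unadjusted p under 0.05 there were 5 of 35 members in that comparison, against 4.43% of all genes. On the normal diet no member differed between EKO and WT by limma, where 0.0% of all genes were higher and 0.00502% (1 gene, Apoe) lower. At an unadjusted p under 0.05 there was 1 of 35 members, against 1.13% of all genes.

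Cell type markers moved in the same comparisons. Averaged over 10 macrophage genes, the level was 9.50 to 9.98 in EKO Western, 9.13 to 10.06 in EKO normal, 10.47 to 10.97 in WT Western and 9.44 to 9.69 in WT normal. In EKO against WT on the Western diet 7 of 10 macrophage genes were lower and none higher, and 3 of 10 adipocyte genes were higher (Adipoq 0.46 ± 0.09, Slc2a4 0.58 ± 0.12 and Retn 0.34 ± 0.08) and none lower. With diet in WT 6 of 10 macrophage genes were higher and none lower, and the same 3 adipocyte genes were lower and none higher. With diet in EKO no gene of either list passed. Of 6 mesothelial genes 5 fell with diet in WT and 1, Upk3b, was higher in EKO on the Western diet, and their mean was 9.81 to 10.16 in EKO Western, 9.58 to 10.32 in EKO normal, 9.33 to 9.47 in WT Western and 10.31 to 10.79 in WT normal. None of 8 brown or beige fat genes passed in any comparison, and Ucp1 was at background in every group. Their mean was 7.86 to 8.04 in EKO Western, 7.67 to 7.84 in EKO normal, 7.83 to 8.08 in WT Western and 7.70 to 7.95 in WT normal. Cox8b had the largest log2 rise with diet, 1.025 in EKO and 0.865 in WT, without passing. With diet 5 of the 8 were above 0 and 3 below in either genotype. None of 8 skeletal muscle or 6 epididymis genes passed, and 4 of the 6 epididymis genes were at background. The part of these cell types in the results on fatty acid oxidation genes was not tested, and in whole fat pads fewer adipocytes and less RNA per adipocyte cannot be told apart.

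**Figure D1:**
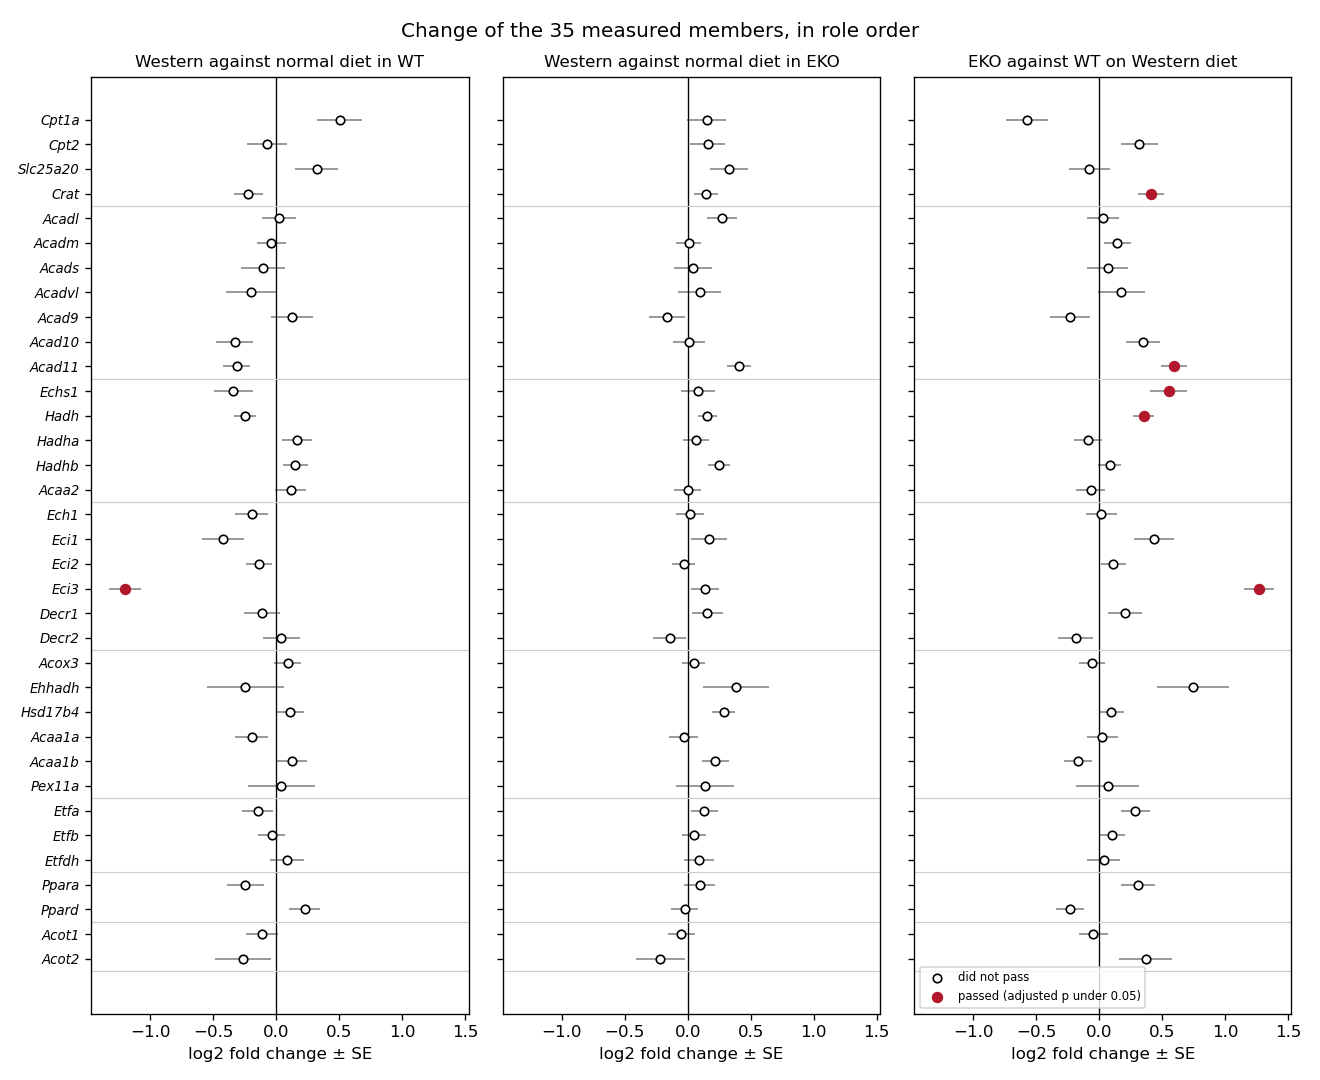
Log2 fold change (horizontal axis, with its standard error) of the 35 measured members, listed down the page in role order, for Western against normal diet in WT, Western against normal diet in EKO and EKO against WT on Western diet. Filled points passed at an adjusted p under 0.05. Eci3 lies at -1.20 in the first panel, no point is filled in the second, and 5 points are filled in the third, all above 0.

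Eci3 encodes an enoyl-CoA isomerase that shifts double bonds of unsaturated fatty acids into the position the cycle can use, and it is a close relative of Eci2. Its level was 9.03, 9.37, 9.11 and 9.34 on the EKO Western arrays and 9.10, 9.25, 9.03 and 8.92 on the EKO normal arrays. On the WT Western arrays it was 7.76, 8.05 and 8.02, and on the WT normal arrays 8.95, 9.22 and 9.27. The 3 WT Western arrays were low, and the other 11 arrays, at 8.92 to 9.37, lay above them with no overlap. Eci3 fell by 1.20 ± 0.13 (log2 fold change ± SE, 2.30-fold, adjusted p = 0.00013) on the Western diet in WT. On the Western diet it was higher in EKO than in WT by 1.27 ± 0.12 (2.41-fold, adjusted p = 4.62e-05). The diet gave 0.14 ± 0.11 in EKO (adjusted p = 0.946), and the diet effect in EKO minus that in WT was 1.34 ± 0.17 (adjusted p = 0.00242). All of these calls held in every alternative run for them, with sizes of 1.11 to 1.30 for the fall in WT and 1.18 to 1.33 for the genotype difference. The WT diet comparison, the genotype comparison on the Western diet and the test of the difference share the 3 WT Western arrays, so they are not separate evidence.

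Eci2, which encodes an isomerase of mitochondria and peroxisomes and is the next coding gene to Eci3 in the mouse reference, did not pass in any comparison. Its level was 10, 10.35, 10.18 and 10.36 in EKO Western, 10.20, 10.17, 10.37 and 10.26 in EKO normal, 10.05, 10.08 and 10.19 in WT Western and 10.21, 10.35 and 10.17 in WT normal. These 4 groups overlapped. Its log2 fold change was -0.14 ± 0.11 for diet in WT and 0.11 ± 0.10 for genotype on the Western diet. How far the probes of either set pick up RNA of its relative is not given in the sources used here.

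Acad11 was the other member whose diet effect differed between the genotypes. Its level was 11.72, 11.70, 11.66 and 11.90 in EKO Western, 11.18, 11.56, 11.26 and 11.37 in EKO normal, 11.13, 11.13 and 11.18 in WT Western and 11.33, 11.42 and 11.63 in WT normal. EKO Western arrays were higher than all 10 others, and WT Western arrays were at the low end. It was higher in EKO than in WT on the Western diet by 0.60 ± 0.10 (1.51-fold, adjusted p = 0.00379), a call that held in all 26 alternatives. Diet gave 0.40 ± 0.10 in EKO (adjusted p = 0.524) and -0.32 ± 0.11 in WT (adjusted p = 0.126), neither of which passed. The difference of these diet effects was 0.72 ± 0.15 (adjusted p = 0.0436). For the interaction the background was 0.145% of all genes with a higher and 0.336% with a lower diet effect in EKO, and 2 of 35 members passed, both higher. The Acad11 interaction call ended in 11 of the leave-one-out fits, at adjusted p up to 0.128 and sizes of 0.63 to 0.75. It was kept without WT normal replicate 1, WT Western replicate 1 or EKO normal replicate 2.

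**Figure D2:**
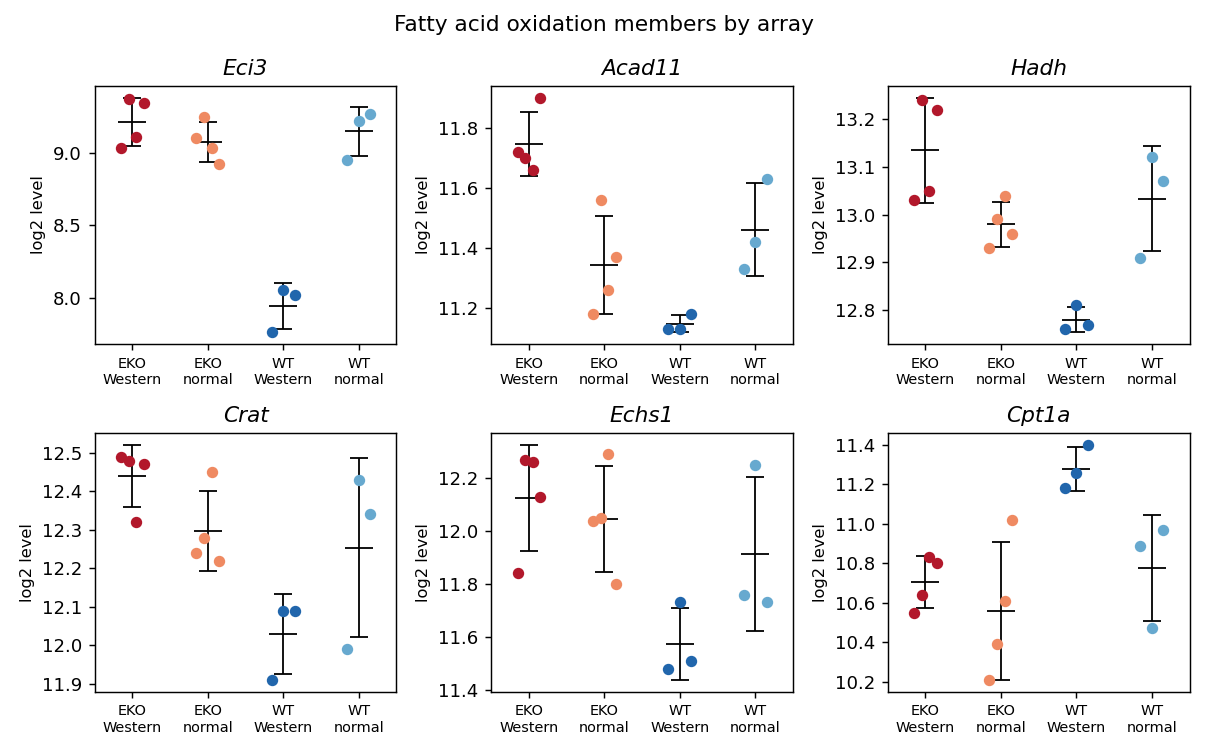
Log2 level (vertical axis, a different range per gene) of Eci3, Acad11, Hadh, Crat, Echs1 and Cpt1a on each array, with points for arrays and a bar for the group mean ± SD, for EKO Western (n = 4), EKO normal (n = 4), WT Western (n = 3) and WT normal (n = 3). WT Western arrays are lowest for Eci3, at 7.76 to 8.05, and highest for Cpt1a, at 11.18 to 11.40.

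Upstream sequences are shown for Eci3, Acad11, Hadh and Echs1, which were higher in EKO fat on the Western diet, and for Eci2 as the close relative of Eci3 that did not pass. Crat, the other member that passed, is named only. RefSeq promoter entries (GRCm38.p6) matched 30 of the 35 measured members. The 100 bases before the gene start are printed 5′ to 3′ on the gene's strand, with each CG dinucleotide in capitals. Eci3 (chr13:34963810-34963909) and Eci2 (chr13:34994145-34994244) lie on the minus strand, as do Hadh (chr3:131272102-131272201) and Echs1 (chr7:140116422-140116521). Acad11 (chr9:104063624-104063723) lies on the plus strand.
Eci3: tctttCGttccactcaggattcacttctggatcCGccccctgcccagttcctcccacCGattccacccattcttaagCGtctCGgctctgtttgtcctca
Eci2: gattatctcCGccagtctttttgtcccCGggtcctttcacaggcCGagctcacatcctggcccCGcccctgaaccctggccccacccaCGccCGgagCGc
Acad11: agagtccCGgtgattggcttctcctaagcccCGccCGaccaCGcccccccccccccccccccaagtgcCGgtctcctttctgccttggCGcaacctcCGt
Hadh: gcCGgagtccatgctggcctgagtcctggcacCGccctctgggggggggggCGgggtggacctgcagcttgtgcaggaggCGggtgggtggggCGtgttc
Echs1: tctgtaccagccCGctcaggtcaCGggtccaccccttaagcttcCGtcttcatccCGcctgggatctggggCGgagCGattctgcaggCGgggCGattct

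The promoters were also described by their CG pairs. Over the 300 base window around the start, the 30 members had a median of 16.5 CG pairs and 59.5% G and C, against 13 and 56.3% over 21262 promoters of protein-coding genes. The range within the members was wide, from 4 in Acaa1b to 45 in Acad10. For 10 of the 30, Eci3 and Acad11 among them, under 50% of coding promoters had fewer CG pairs. Acad11, at 13, equalled the median of coding promoters. Eci3 had 11, Acad11 13, Eci2 14, Hadh 17 and Echs1 20. PPARs bind as dimers with RXR to a pair of AGGTCA half-sites with 1 base between them, and both strands of the window were searched for that pair. With up to 2 mismatches it was found in 3 of the 30 member promoters (10%), those of Echs1, Etfa and Slc25a20, and in 3.86% of 32851 promoters. These 32851 are not limited to protein-coding genes and have a median of 52.7% G and C. The share over coding promoters alone is not given here. With 1 mismatch or none it was found in 0 of 30, against 0.554% and 0.0396% of all. The Echs1 and Etfa stretches are shown with the matched bases in capitals, on the gene's strand, which is minus for both. In the printed Echs1 stretch (chr7:140116462-140116534, 73 bases) the match starts at position -83, counted from the gene start, and runs along the gene's strand. In the printed Etfa stretch (chr9:55512278-55512350, 73 bases) the match starts at position -77 and reads on the opposite strand.
Echs1: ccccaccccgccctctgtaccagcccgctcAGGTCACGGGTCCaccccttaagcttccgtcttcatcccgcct
Etfa: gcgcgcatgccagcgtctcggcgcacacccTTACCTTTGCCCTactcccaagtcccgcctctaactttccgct
A match describes these letters only and was not tested against binding.

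The carnitine shuttle genes differed in sign. Crat, the carnitine acetyltransferase of mitochondria and peroxisomes, was at 12.49, 12.48, 12.32 and 12.47 in EKO Western, 12.24, 12.28, 12.45 and 12.22 in EKO normal, 11.91, 12.09 and 12.09 in WT Western and 11.99, 12.43 and 12.34 in WT normal. EKO Western and WT Western arrays did not overlap. Crat was higher in EKO on the Western diet by 0.41 ± 0.11 (1.33-fold, adjusted p = 0.0354). Leaving out WT Western replicate 1, 2 or 3 or EKO Western replicate 1, 2 or 4 ended the call, with adjusted p up to 0.111 and sizes of 0.35 to 0.44.

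Cpt1a, the liver-type enzyme of the entry step that malonyl-CoA inhibits, had the opposite sign. Its level was 10.55, 10.64, 10.83 and 10.80 in EKO Western, 10.21, 10.39, 10.61 and 11.02 in EKO normal, 11.18, 11.26 and 11.40 in WT Western and 10.89, 10.47 and 10.97 in WT normal. The 3 WT Western arrays were the highest of the 14. Cpt1a did not pass: its log2 fold change was -0.57 ± 0.17 for EKO against WT on the Western diet (adjusted p = 0.0589) and 0.50 ± 0.18 for diet in WT (adjusted p = 0.13). In 10 of 26 alternatives the first of these passed, with adjusted p between 0.00174 and 0.269 over all of them.

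The remaining shuttle genes stayed below the threshold in each comparison. Slc25a20, the carnitine-acylcarnitine carrier, had diet values of 0.33 ± 0.15 in EKO and 0.32 ± 0.17 in WT. Cpt2 had 0.32 ± 0.15 for genotype on the Western diet, where its EKO arrays (11.13 to 11.39) lay above its WT arrays (10.82 to 11.04).

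Among the 7 acyl-CoA dehydrogenases, which start each turn of the cycle, Acad11 alone passed. The medium-chain enzyme gene Acadm had group means of 12.48 in EKO Western, 12.47 in EKO normal, 12.33 in WT Western and 12.37 in WT normal. For genotype on the Western diet the other 6 ran from -0.23 ± 0.16 in Acad9, whose product also helps assemble respiratory complex I, to 0.35 ± 0.14 in Acad10. Acad10 was at 7.77 to 7.79 on the WT Western arrays and 7.87 to 8.24 on the WT normal arrays, with no overlap, but its diet value of -0.33 ± 0.15 did not pass. The long-chain enzyme gene Acadl had a diet value of 0.27 ± 0.12 in EKO and 0.02 ± 0.14 in WT, and the very-long-chain enzyme gene Acadvl 0.09 ± 0.17 in EKO and -0.20 ± 0.20 in WT. The short-chain enzyme gene Acads had 0.04 ± 0.15 in EKO and -0.10 ± 0.17 in WT, and 0.07 ± 0.16 for genotype on the Western diet.

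Of the 5 genes for the later mitochondrial steps, Echs1 and Hadh were higher in EKO on the Western diet. Echs1, the short-chain enoyl-CoA hydratase, was at 11.84, 12.27, 12.26 and 12.13 in EKO Western, 12.04, 12.05, 12.29 and 11.80 in EKO normal, 11.48, 11.73 and 11.51 in WT Western and 11.76, 12.25 and 11.73 in WT normal. Hadh, the short-chain hydroxyacyl-CoA dehydrogenase, was at 13.03, 13.24, 13.05 and 13.22 in EKO Western, 12.93, 12.99, 13.04 and 12.96 in EKO normal, 12.76, 12.81 and 12.77 in WT Western and 12.91, 13.12 and 13.07 in WT normal. For both genes every EKO Western array lay above every WT Western array, and both genes also separated WT Western from WT normal, Echs1 with 11.73 on either side at 2 decimals. The genotype difference on the Western diet was 0.55 ± 0.15 for Echs1 (1.46-fold, adjusted p = 0.0421) and 0.35 ± 0.08 for Hadh (1.28-fold, adjusted p = 0.0209). The Echs1 call ended without WT Western replicate 1, 2 or 3, EKO normal replicate 1 or EKO Western replicate 2, 3 or 4, and in the arrays of lower background alone (adjusted p up to 0.195). That of Hadh ended without WT Western replicate 2 or 3 or EKO Western replicate 2 or 4, and with only the 7 Western-diet arrays fitted (adjusted p up to 0.0987).

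Hadha and Hadhb, neighbouring genes for the 2 subunits of the trifunctional protein that acts on long chains, did not pass. For genotype on the Western diet Hadha had -0.09 ± 0.11 and Hadhb 0.08 ± 0.09. The diet values of Hadha were 0.07 ± 0.10 in EKO and 0.17 ± 0.12 in WT, and those of Hadhb 0.25 ± 0.09 in EKO and 0.15 ± 0.10 in WT. Acaa2, the mitochondrial thiolase, had -0.07 ± 0.12 for genotype on the Western diet.

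Besides Eci3, none of the 6 genes for double-bond handling passed. Eci1, the mitochondrial isomerase, was at 10.92 to 11.21 in EKO Western and 10.37 to 10.75 in WT Western, with no overlap, and had 0.44 ± 0.16 (adjusted p = 0.129). Its value on the WT normal arrays was 10.71, 11.42 and 11.03, and the diet gave -0.43 ± 0.17 in WT (adjusted p = 0.185). With array weights, and with array background as a block or covariate, Eci1 passed in both comparisons, and with quantile normalization in the genotype comparison (adjusted p 0.00456 to 0.241 for genotype and 0.0379 to 0.629 for diet over 26 alternatives). The dienoyl-CoA reductase genes differed in sign for genotype on the Western diet, with 0.21 ± 0.13 for the mitochondrial Decr1 and -0.19 ± 0.14 for the peroxisomal Decr2. Ech1, a dienoyl-CoA isomerase, had 0.02 ± 0.12.

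None of the 6 members grouped under the peroxisomal cycle and peroxisome division passed in any comparison. This grouping leaves out members described under other roles whose products also work in peroxisomes, such as Crat, which passed. Eci3 and Acad11, which passed too, were counted under other roles, and where in the cell their products work was not examined here. Ehhadh, the bifunctional enzyme and a known PPARalpha target in liver, had the largest spread within groups of all members, and ran from 9.76 on WT normal replicate 1 to 11.17 on EKO Western replicate 4. It was at 10.41, 11.16, 10.62 and 11.17 in EKO Western, 10.33, 10.90, 10.71 and 9.88 in EKO normal, 10.16, 10.01 and 10.10 in WT Western and 9.76, 11.04 and 10.22 in WT normal. EKO Western and WT Western arrays did not overlap, yet the spread within groups was wide and the difference of 0.75 ± 0.28 had an adjusted p = 0.156. In the arrays of lower background alone, and with array weights, under which 34.1% of all genes passed, Ehhadh passed (adjusted p as low as 0.000253).

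Hsd17b4, the other bifunctional enzyme, had its largest value for diet in EKO, at 0.29 ± 0.09, with 11.47 to 11.85 on the Western diet and 11.32 to 11.44 on the normal diet. Acox3, an oxidase for branched chains, stayed between 9.57 and 9.93 on all arrays. Pex11a, which drives peroxisome division, ranged from 10.18 to 11.15, and both of these extremes were WT Western arrays. The thiolase genes Acaa1a and Acaa1b are close copies in mouse, and how their probes share RNA was not tested. Acaa1a was at 9.11, 9.22, 9.19 and 9.34 in EKO Western, 9.11, 9.32, 9.39 and 9.17 in EKO normal, 9.01, 9.28 and 9.28 in WT Western and 9.12, 9.68 and 9.37 in WT normal. Acaa1b was at 7.80, 7.84, 7.79 and 8.13 in EKO Western, 7.77, 7.71, 7.61 and 7.60 in EKO normal, 8.07, 8.09 and 8.02 in WT Western and 7.73, 8.21 and 7.85 in WT normal. Acaa1a overlapped between all groups, while EKO Western arrays lay above EKO normal arrays for Acaa1b (0.22 ± 0.11, adjusted p = 0.946).

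**Figure D3:**
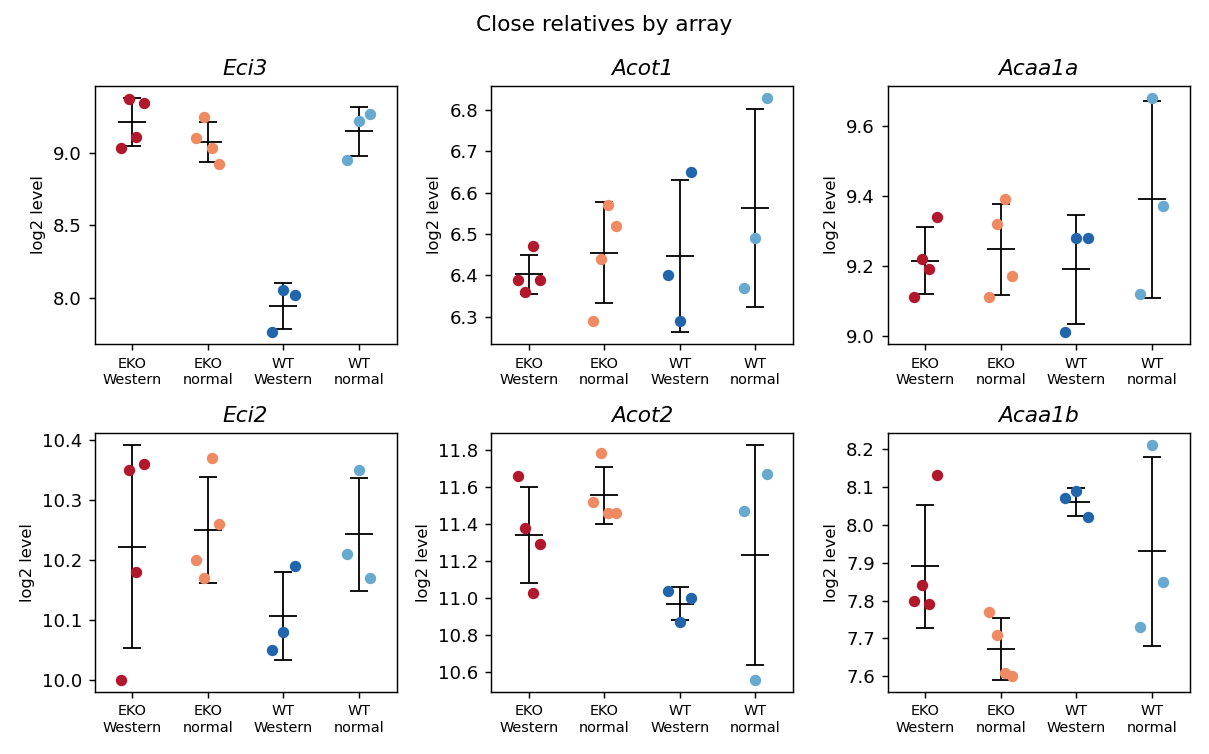
Log2 level (vertical axis, a different range per gene) on each array for the close relatives Eci3 and Eci2, Acot1 and Acot2, and Acaa1a and Acaa1b, with points for arrays and a bar for the group mean ± SD (n = 4 for EKO groups, 3 for WT groups). WT Western arrays of Eci3 lie at 7.76 to 8.05, while those of Eci2 lie at 10.05 to 10.19 among the other groups. Acot1 stays at 6.83 or below.

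The electron transfer genes Etfa, Etfb and Etfdh, which hand electrons from the dehydrogenases to ubiquinone, had, in that order, 0.29 ± 0.12, 0.10 ± 0.10 and 0.04 ± 0.13 for genotype on the Western diet. None passed, although Etfa separated EKO Western (11.56 to 11.70) from WT Western (11.16 to 11.46). The receptor gene Ppara was at 8.47 to 9.02 in EKO Western and 8.43 to 8.53 in WT Western, with 0.31 ± 0.14 (adjusted p = 0.221). Ppard, a related receptor, had -0.23 ± 0.12 (adjusted p = 0.294).

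Acot2, the mitochondrial thioesterase that frees fatty acids from CoA, was at 11.66, 11.38, 11.03 and 11.29 in EKO Western and 11.52, 11.78, 11.46 and 11.46 in EKO normal. In WT Western it was at 11.04, 10.87 and 11, and in WT normal at 11.47, 10.56 and 11.67. WT normal replicate 2 was the lowest of all arrays for Acot2, and no comparison passed. Acot1, its cytosolic neighbour, was at 6.39, 6.36, 6.47 and 6.39 in EKO Western, 6.29, 6.44, 6.57 and 6.52 in EKO normal, 6.40, 6.29 and 6.65 in WT Western and 6.37, 6.49 and 6.83 in WT normal, which is the background range.

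Over the 35 members the median log2 fold change was 0.10 for EKO against WT on the Western diet, against 0.03 over all genes and -0.04 over genes brighter than the median gene. In that comparison 25 of 35 members were above 0 (71.4%), against 57.6% of all genes and 43.1% of those brighter genes. For diet in EKO the median was 0.09 and 27 of 35 were above 0, against 0.01 and 52.1% of all genes and -0.05 and 33.0% of the brighter genes. For diet in WT 21 of 35 were below 0 and 14 above (40.0%), where 44.2% of all genes and 47.7% of the brighter genes were above 0. The median there was -0.11, beside -0.02 over all genes and -0.01 over the brighter genes. That negative median rested on 1 array, since it was 0.06 without WT normal replicate 2. On the normal diet the median for EKO against WT was -0.01, equal to that over all genes, and the values ran from -0.26 in Acaa1b to 0.33 in Acot2. The 4 with the smallest p there were Acaa1b, Acadl (-0.22 ± 0.13), Ech1 (-0.20 ± 0.12) and Acot2, each with adjusted p = 1.0. The diet comparisons and the genotype comparisons share groups, and members are not replicates, so these counts describe the list only.

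Members were also counted by whether the arrays of the groups compared overlapped. EKO Western lay wholly above WT Western for 9 of 35 members (25.7%, against 7.93% of all genes), namely the 5 that passed with Cpt2, Eci1, Ehhadh and Etfa. It lay wholly below for 1, Cpt1a, against 8.71% of all genes. In EKO the Western arrays lay above the normal arrays for 3 (Acad11, Hsd17b4 and Acaa1b, 8.57%, against 0.973%) and below for 0, against 1.59%. In WT the Western arrays lay below the normal arrays for 6 (Acad10, Acad11, Echs1, Hadh, Eci3 and Ppara, 17.1%, against 11.3%) and above for 1, Cpt1a, against 8.77%.

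**Figure D4:**
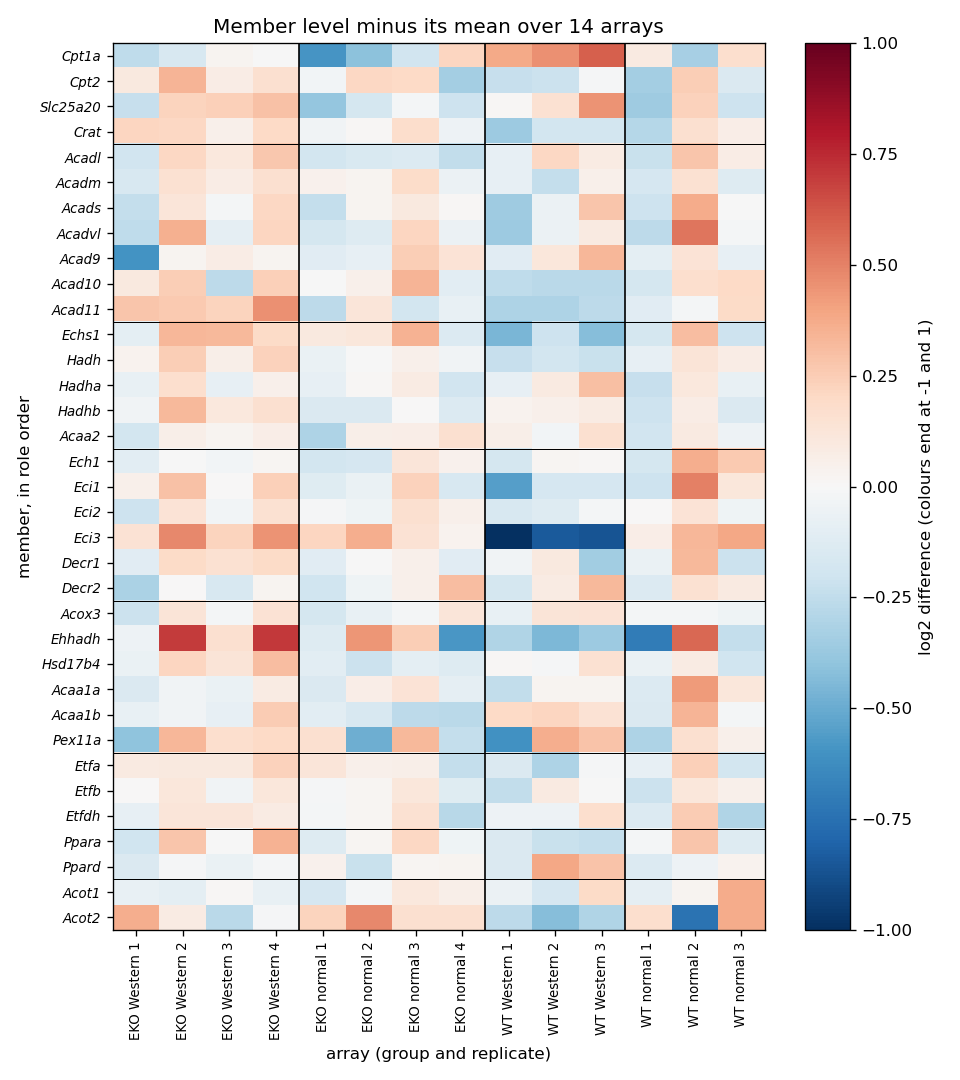
Level of each measured member (rows, in role order) on each of the 14 arrays (columns, by group), as its log2 difference from that member's mean over all arrays, in red where above and blue where below. WT normal replicate 2 has 30 and WT normal replicate 1 has 4 of 35 members above their own mean.

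Arrays of 1 group differed in how many members were high. The number of members above their own mean over 14 arrays was 10, 28, 21 and 32 in EKO Western, 7, 17, 27 and 12 in EKO normal, 6, 15 and 21 in WT Western and 4, 30 and 16 in WT normal. WT normal thus held both the array with the fewest and the one with the next to most. Both WT arrays of higher background were the lowest of their groups, at 4 and 6, and EKO Western replicate 1 was likewise the lowest of its group, at 10. The remaining arrays of higher background were not: EKO Western replicate 3 had 21 and EKO normal replicate 2 had 17. With the 9 arrays of lower background alone, only WT Western replicates 2 and 3 and EKO Western replicates 2 and 4 remained on the Western diet. In that small set 7 members passed for genotype, 6 higher (Crat, Acad10, Acad11, Hadh, Eci3 and Ehhadh, against 2.60% of all genes) and 1 lower (Ppard, against 5.50%). Within groups the spread was largest for Ehhadh (pooled SD 0.44), Pex11a (0.38) and Acot2 (0.32), and smallest for Hadh (0.083).

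Respiratory chain and citrate synthase genes gave a nearby reading of mitochondria. Of 13, 1 was higher in EKO on the Western diet (Uqcrc2, 0.42 ± 0.11, adjusted p = 0.043) and none lower, with a median of 0.23. Over all genes that median was 0.03, with 1.64% higher and 4.05% lower. In WT none passed with diet, and their median was -0.22, with 12 of 13 below 0. Over all genes the median was -0.02 and 44.2% were above 0. Averaged over the 13 genes, the level was 11.428 to 11.879 in EKO Western, 11.275 to 11.652 in WT Western and 11.497 to 11.977 in WT normal. These ranges overlapped. WT normal replicate 2 was the highest of its group at 11.977, with replicates 1 and 3 at 11.497 and 11.542.

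Of 29 further fatty acid oxidation genes measured (32 listed), 4 were higher in EKO than in WT on the Western diet and none lower. Among all genes 1.64% were higher and 4.05% lower. Phyh, the peroxisomal hydroxylase that starts the breakdown of phytanic acid, a branched fatty acid, was at 11.76, 11.65, 11.63 and 11.85 in EKO Western, 11.70, 11.59, 11.67 and 11.64 in EKO normal, 11.14, 11.07 and 10.99 in WT Western and 11.65, 11.60 and 11.63 in WT normal. Like Eci3, it was low on the WT Western arrays and overlapped among the other groups. Phyh was higher in EKO by 0.66 ± 0.08 (adjusted p = 0.000269), fell by 0.56 ± 0.08 with diet in WT (adjusted p = 0.00124), and its interaction was 0.63 ± 0.11 (adjusted p = 0.0176). Abcd2, a peroxisomal carrier of very long acyl-CoA, was higher in EKO by 0.39 ± 0.10 on the Western diet (adjusted p = 0.0292). It fell by 0.41 ± 0.10 with diet in WT (adjusted p = 0.0309). Acot4, a peroxisomal thioesterase, was higher in EKO by 0.72 ± 0.14 (adjusted p = 0.00951). Hsd17b10, a mitochondrial dehydrogenase of branched chains, was higher by 0.59 ± 0.13 (adjusted p = 0.0185). How the calls of these further genes held in the alternatives is not given here. No other of the 29 passed in any comparison.

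Among 23 measured PPAR targets and co-regulators (27 listed), 1 rose and 1 fell with diet in WT, where 3.19% of all genes were higher and 2.30% lower. Plin2, a lipid droplet coat protein, rose by 1.09 ± 0.13 and Nrip1, a corepressor of oxidation genes, fell by 0.71 ± 0.13. In EKO the diet value of Nrip1 was -0.46, without passing, at 10.06 to 10.56 in EKO Western and 10.62 to 10.99 in EKO normal. No gene of this list passed for the interaction. On the Western diet Plin2 was lower in EKO than in WT by 0.73 ± 0.12 on the log2 scale. Its level was 12.19 to 12.28 in EKO Western and 12.81 to 13.20 in WT Western. Ppargc1a, the coactivator of mitochondrial genes, was at 8.45 ± 0.26 in EKO Western and 7.94 ± 0.28 in WT Western (SD, n = 4 and 3), which did not pass (0.51 ± 0.19, adjusted p = 0.14). No target of this list passed in EKO with diet.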

How the data were processed

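RNA of 14 fat pad samples was measured on Affymetrix arrays, 1 per sample. The authors deposited log2 values. The submitters' processing notes name RMA, whose version is not given in the sources used here. Of 34760 rows, 21640 carried 1 gene symbol in the platform annotation. For each gene the row with the highest mean was kept, which gave 19937 genes, and each measured member had 1 row. Group means were fitted to all 14 arrays with limma 3.58.1 (lmFit and eBayes) in R 4.3.3, and p-values were adjusted over the 19937 genes by the Benjamini-Hochberg method. A gene passed at an adjusted p under 0.05. The labels call the samples of a group biological replicates and do not say whether each is 1 animal, so p-values measure the spread between these samples.

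The members and lists were chosen with earlier results of these data known. By rule, every member that passed was named, or the 4 with the smallest p where none passed. Values on every array were given for members that passed and for close relatives, each role was described, and up to 6 other pathway genes that passed were named. The array values of Ehhadh and Phyh, Ppargc1a, the other members that did not pass and the description of CG pairs were chosen after values were seen. Protein sequences were not used here.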

Additional observations from a re-analysis of the deposited data

Results flagged for a closer look

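The diet effect differed between genotypes for Eci3, by 1.34 on the log2 scale (EKO minus WT), and for Acad11, by 0.72, in the interaction test.

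Single arrays stood apart from the other 3 of their group for 9 members, out of 70 gene and group pairs examined in the EKO groups, and chance marks about 1 in 20. EKO Western replicate 1 was low for Slc25a20 (10.25), Acad9 (9.40), Acaa2 (11.63) and Decr1 (11.22), and it was among the 5 arrays of higher background. EKO Western replicate 3 was low for Crat (12.32). EKO Western replicate 4 was high for Acaa1b (8.13) and Etfa (11.70). EKO normal replicate 3 was high for Hadhb (11.35), and EKO normal replicate 2 was low for Ppard (9.82).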

How the results depend on the processing

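Each count and median of the 35 members was recomputed under 26 alternatives (25 for the interaction), and no called value changed sign. For diet in WT the count of members passing was 1. It was 2 with quantile normalization (where 8.70% of all genes passed in either direction) and 2 with the replicate block (6.52%), 3 with the background split as a block (10.1%), 3 in the arrays of lower background alone (10.8%) and 3 with background as a covariate (10.4%), against 5.49% in the reported fit. With array weights it was 10 of 35, beside 26.2% of all genes, and Acot1, at background, was among them. Leaving out 1 array gave 1 to 2, the 2 without WT Western replicate 1, while the share of all genes ran from 2.08% to 7.59%. For EKO against WT on the Western diet the count was 5, where 5.69% of all genes passed, and 17 with array weights (15 higher and 2 lower, Cpt1a and Ppard), where 34.1% of all genes passed. Leaving out 1 array gave 2 to 6, the 2 without WT Western replicate 2 or 3 or EKO Western replicate 2 or 4. Over these fits the share of all genes ran from 1.58% to 10.6%. The interaction count was 2, where 0.482% of all genes passed, and 4 with array weights (11.7%) or with background as a covariate (1.72%). Leaving out 1 array gave 1 to 2, beside 0.186% to 2.5% of all genes. The median for diet in WT was -0.152 to 0.056 when 1 array was left out. The interaction median was 0.15, and 0.29 (0.285) in the arrays of lower background alone. The cause was not tested. For diet in EKO and for genotype on the normal diet the count was 0 in every alternative.

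With the replicate block, 6 members passed for EKO against WT on the Western diet, where 8.39% of all genes passed. For the interaction 2 passed, beside 0.798% of all genes. The labels do not tie replicate numbers across groups, and deviations of same-numbered arrays correlated at -0.59 to 0.64. Whether same-numbered samples were handled together is not known. The number of arrays, 3 or 4 per group, limits what could be detected, and Acot1 lay within background.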
